A study of Mus musculus with 6 samples.

Results

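The genes described here encode the enzymes, other than LSD1 itself, that add methyl groups to histone lysines or arginines or take them off lysines, together with their close relatives. They were chosen by gene symbol alone, as names beginning with Kdm (numbers above LSD1's own family), Kmt, Setd, Nsd or Prmt, with Ehmt1, Ehmt2, Suv39h1, Suv39h2, Dot1l, Phf2 and Phf8 and older names of the same genes. The rule matched 50 of the 15861 genes in the deposited table. Of these, 26 belong to the lysine methyltransferase and SET domain families, 7 are protein arginine methyltransferases, which fall under the symbol rule although they do not act on lysine, and 17 are demethylases of the Jumonji type. RNA had been sequenced from germinal centre B cells of C57BL/6 mice, sorted as B220+ GL7+ FAS+. The KO group held 3 mice with floxed Lsd1 alleles and 1 copy of a Cre allele that the labels name Cgamma-cre, and the WT group held 3 mice with the same floxed alleles and no Cre. The series design calls them littermates, and neither their ages nor any immunisation is stated in the labels. No mouse with Cre and unfloxed alleles was analysed here, so an effect of Cre cannot be told apart from that of the deletion.

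Methyl groups on histone tails are written by SET domain proteins (and by DOT1L, which has no SET domain), removed by LSD1-type amine oxidases or by Jumonji-type oxygenases, and bound by reader proteins. Methylation of H3K4 and H3K36 marks active promoters, enhancers and gene bodies, whereas that of H3K9, H3K27 and H4K20 is tied to silent chromatin. LSD1, encoded by Kdm1a, removes mono- and dimethyl marks from H3K4 and was also described to act on H3K9, so the genes below encode enzymes that write its substrates, erase the same marks or act on other residues. In germinal centres several of these genes are well known, among them KMT2D, a frequent target of mutations in human germinal centre lymphoma.

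Each KO library was deeper than each WT library, with 12.3 to 14.3 M counts in KO and 3.39 to 5.52 M counts in WT, so genotype and whatever set the depth cannot be told apart. Levels are given as CPM, the count scaled to a common library size, with edgeR's TMM correction for composition. On that scale 1 count was worth 0.0705 to 0.0758 CPM in KO and 0.195 to 0.311 CPM in WT. Kdm1a was read at 81.8, 33.0 and 21.8 CPM in KO libraries 1, 2 and 3 and at 134, 85.1 and 92.4 CPM in WT libraries 1, 2 and 3. The library labelled KO 1 thus lay close to the lowest WT library for the deleted gene, and KO values below include it unless stated otherwise. Sums over marker lists are given as CPM of the raw library total, with no TMM correction. The sums of the 10 germinal centre markers were 5130, 6620 and 5930 CPM in KO and 7020, 6830 and 7600 CPM in WT. Every KO library was thus below every WT library for this sum. Macrophage markers, 10 in all, came to 198, 158 and 2460 CPM in KO and to 246, 1100 and 2110 CPM in WT. T cell markers, 7 in all, came to 157, 186 and 214 CPM in KO and to 209, 180 and 250 CPM in WT, nearly all of it from Lck, which had 139 to 184 CPM after TMM scaling in KO and 187 to 255 in WT, while Cd3d and Cd3g were at most 1.14 CPM and Cd4 at most 10.9 CPM on that scale. The 6 plasma cell markers came to 2420, 2910 and 3150 CPM in KO and to 2170, 3200 and 2750 CPM in WT. Most of this sum came from Jchain, Mzb1 and Xbp1. After TMM scaling Prdm1 had 26.8, 3.17 and 14.3 CPM in KO and 4.2, 3.12 and 1.56 CPM in WT. Sdc1 had 8.42, 3.31 and 6.85 CPM in KO and 7.34, 5.08 and 7.47 CPM in WT. Of the 5 plasma cell markers tested, 3 had a log2 fold change above 0 and 2 below. Memory and follicular B cell markers, 8 in all, came to 581, 253 and 324 CPM in KO and to 174, 179 and 194 in WT, so every KO library was above every WT library, and KO 1 highest. Their part in the values below was not tested. In bulk RNA, fewer cells of a type and less RNA per cell cannot be told apart.

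None of the methylation enzyme genes passed the test over all genes for a difference between the genotypes. Of the 50 genes, 48 passed edgeR's filter on low counts, and 0 of them had an adjusted p under 0.05 (edgeR quasi-likelihood test, Benjamini-Hochberg adjustment over 10926 genes), against 0.0824% of all tested genes (0.0732% higher and 0.00915% lower in KO). DESeq2 and limma-voom also called 0 of the 48. At an unadjusted p under 0.05, 5 were higher in KO (Kmt2e, Kdm7a, Kdm5a, Kmt2c and Kmt5b) and 2 lower (Kdm4b and Prmt7), which is 10.4% and 4.17% of the 48 against 7.10% and 5.50% of all tested genes. Every KO library lay above every WT library for 5 of the 48, or 10.4%, against 10% of all tested genes, and below for 4, or 8.33%, against 7.94%. These shares are near the background. Log2 fold changes of KO over WT ran from -0.56 for Kdm4b to 0.70 for Kmt2e, with a median of 0.07 over the 48 genes and 0.01 over all tested genes. In all, 28 of the 48 were above 0 (58.3%), against 51.3% of all tested genes. The 95% intervals of the single genes reached down to -1.12 (Prmt2) and up to 1.45 (Kdm5b), both weakly read genes.

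**Figure D1:**
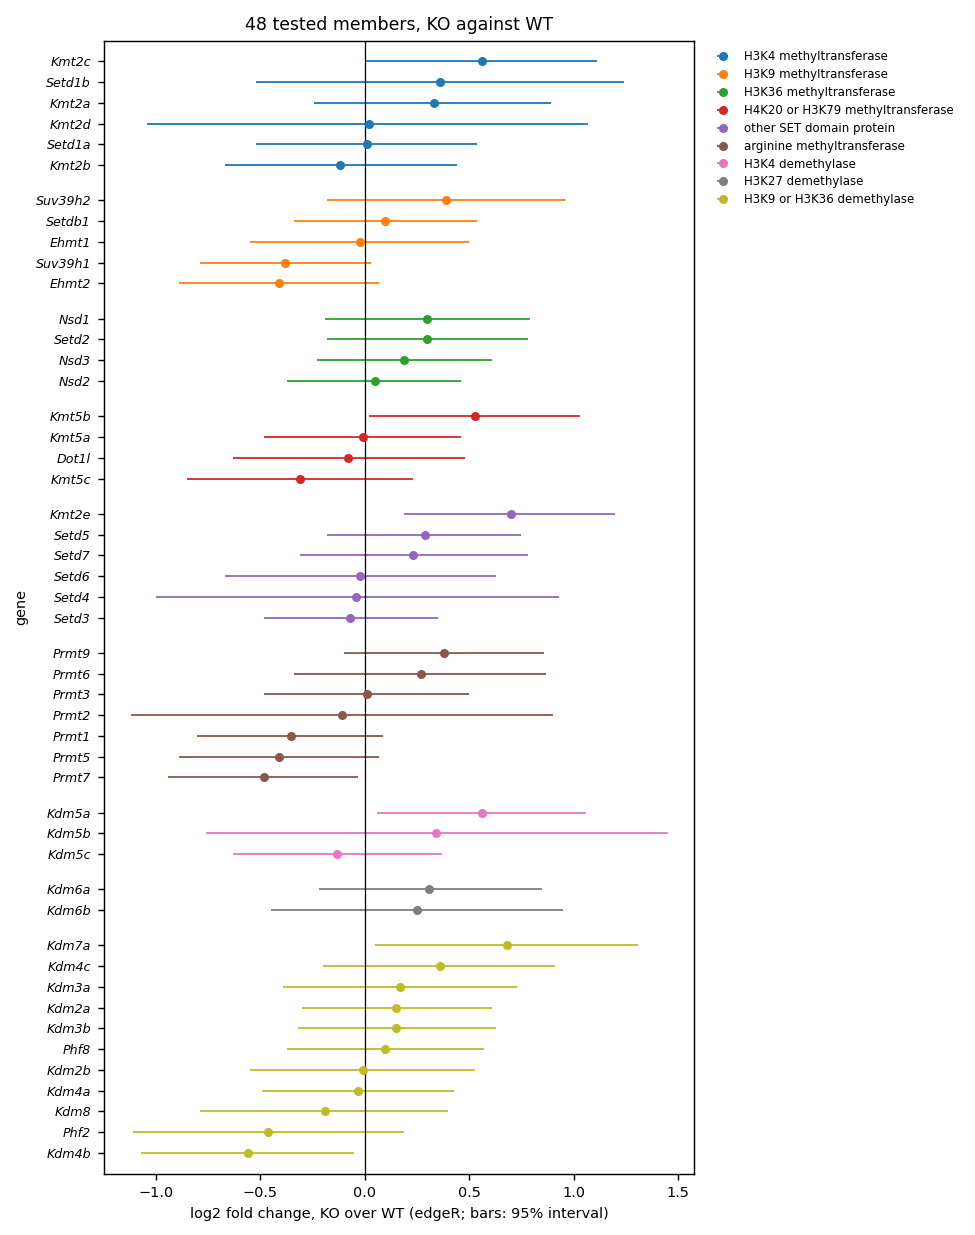
Log2 fold change of KO over WT (horizontal axis) with its 95% interval for each of the 48 tested genes, grouped by the residue or kind of enzyme. The intervals of Kmt2e, Kdm7a, Kdm5a and Kmt5b lie above 0, that of Kmt2c begins at 0.00, and those of Kdm4b and Prmt7 below 0, before any correction for the number of genes tested.

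Expression levels spanned a wide range within the family. Levels per kilobase of exon allow only a rough comparison between genes. The length is the union of all annotated exons of a gene and may exceed that of the transcripts present. The length and GC trend described below was also left in. On this scale Prmt1 was highest with a mean over the 6 libraries of 98.3 CPM per kb. It was followed by Ehmt2 with 72.7, Prmt5 with 54.6 and Suv39h1 with 42.6. Kmt5a (30.5), Kdm5c (27.5) and Kdm4a (24.8) came next. The lowest were Kdm5b with 0.343, Setdb2 with 0.248 and Kdm4d with 0.138 CPM per kb. In the whole order of 50 genes, the ranges over libraries of neighbouring genes overlapped at every step but 1, between Setd1b (0.859 to 2.42 CPM per kb) and Kdm5b (0.170 to 0.487). Setdb2 had 12, 15 and 11 counts in KO and 1, 8 and 4 counts in WT. Kdm4d had 12, 2 and 3 counts in KO and 1, 2 and 1 counts in WT. Both were left out of the test by the filter. Kdm5d, the Y-linked relative of Kdm5c, was not analysed here. The Y-linked gene Uty had 1 count in KO 2 and 0 in the other libraries, and Xist, the RNA of the inactive X chromosome, had 232 to 887 CPM in KO and 201 to 660 CPM in WT.

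The H3K4 methyltransferases varied more between KO mice than between the genotypes. They comprise the MLL family genes Kmt2a, Kmt2b, Kmt2c and Kmt2d and the COMPASS catalytic genes Setd1a and Setd1b. Their mean log2 CPM relative to the WT mean was 0.68 in KO 1, -0.36 in KO 2 and 0.12 in KO 3, and 0.25, -0.03 and -0.22 in WT 1, 2 and 3. Kmt2d, the H3K4 monomethyltransferase of enhancers, shows this most clearly, with 170, 56.8 and 85.7 CPM in KO and 133, 115 and 60.4 CPM in WT. The KO libraries held both the highest and the lowest value, and the log2 fold change was 0.02 with an interval of -1.04 to 1.07. Its value ran from -0.53 without KO 1 to 0.32 without KO 2. Setd1b had 21.5 CPM in KO 1 against 7.61 and 9.21 in KO 2 and 3, and 8.71 to 11.3 CPM in WT.

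Kmt2c, the second enhancer-directed MLL gene (chromosome 5, 25271798 to 25498783, minus strand, mm10), stood at 102, 54.9 and 88.1 CPM in KO and at 52.7, 64.4 and 49.2 CPM in WT. KO 1 and KO 3 were above all WT libraries, while KO 2 lay within their range. The log2 fold change was 0.56 (adjusted p = 0.393 by edgeR, SE 0.25), 0.36 without KO 1 and 0.13 after removal of the length and GC trend described below. Kmt2a, the founding MLL gene and the highest of the group per kilobase, had 423, 243 and 309 CPM in KO and 326, 257 and 193 CPM in WT (log2 fold change 0.33, adjusted p = 0.635 by edgeR, SE 0.26). Its value was 0.09 without KO 1, 0.15 without WT 3, and 0.03 with that trend removed. Kmt2b averaged 108 ± 24.6 CPM in KO and 117 ± 30.4 CPM in WT (SD, n = 3 each). For Setd1a the log2 fold change was 0.01, but 53.7% of its exon length is also covered by exons of other genes. These are 9430064I24Rik on the other strand and Gm49388 on the same strand, so its reads cannot be assigned with certainty.

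**Figure D2:**
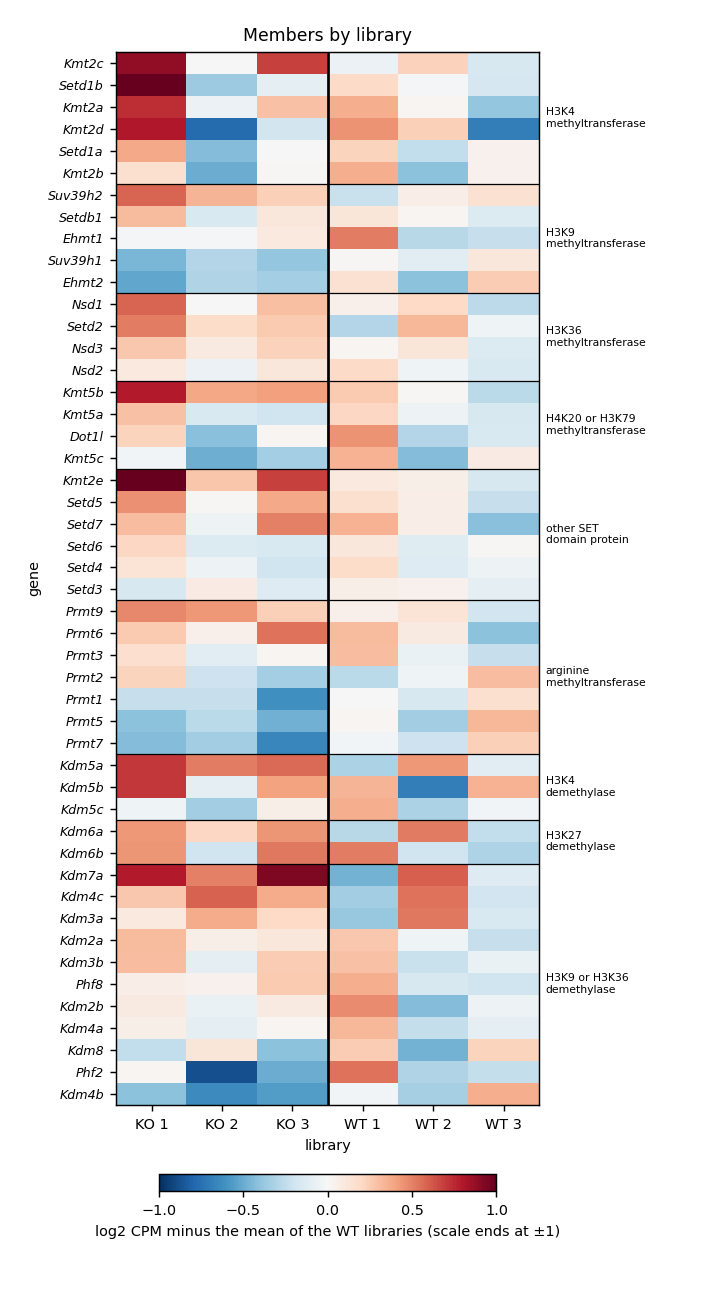
Log2 CPM of the 48 tested genes (rows, grouped by residue or kind of enzyme) in each library (columns, KO left of WT) minus the mean of the WT libraries; colours stop at ±1. The H3K4 methyltransferase rows are high in KO 1 (mean 0.68) and low in KO 2 (mean -0.36), and Kdm3a, Kdm4c, Kdm5a, Kdm6a and Kdm7a are high in WT 2 as well as in KO.

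The H3K9 methyltransferases include a pair of paralogues whose levels leaned opposite ways. Suv39h1 and Suv39h2 both trimethylate H3K9 in the heterochromatin around centromeres. Suv39h1 (chromosome X, 8061171 to 8074760, minus strand) had 174, 195 and 183 CPM in KO and 240, 222 and 258 CPM in WT. Suv39h2 (chromosome 2, 3455815 to 3475031, minus strand) had 20.6, 17.5 and 16.3 CPM in KO and 11.8, 14.4 and 15.3 CPM in WT. Every KO library was below every WT library for Suv39h1 and above every WT library for Suv39h2, with a narrow margin for Suv39h2 between KO 3 and WT 3. Neither gene passed the test, with log2 fold changes of -0.38 (adjusted p = 0.429 by edgeR, SE 0.19) for Suv39h1 and 0.39 (adjusted p = 0.561 by edgeR, SE 0.26) for Suv39h2. With the length and GC trend removed they were -0.54 for Suv39h1 and 0.09 for Suv39h2, so the lean of Suv39h2 was close to 0 on that scale.

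The ratio of Suv39h1 to Suv39h2, both per kilobase, does not depend on how libraries are scaled. It was 7.33, 9.73 and 9.77 in KO and 17.7, 13.4 and 14.7 in WT. The ranges did not overlap, which had to follow from the opposite separation of both genes. The mean log2 ratio was 3.15 ± 0.24 in KO and 3.92 ± 0.21 in WT (SD, n = 3 each), a difference of -0.77. An exact two-sided permutation test over the 6 libraries gave p = 0.1, the smallest value this design allows. After adjustment over the 3 ratios examined it was 0.3. The permutation p was thus fixed in advance by the separation of both genes and adds nothing to it. The ratios were added after the values had been seen. With 1 library left out at a time the difference lay between -0.86 and -0.64, and after removal of the length and GC trend it was -0.63. Exons of other genes cover 11.1% of the exon length of Suv39h1 and 8.25% of that of Suv39h2.

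The promoter windows of this pair are shown because the paralogues are read at unlike levels and leaned apart. They are the 250 bases before each annotated RefSeq start (GRCm38.p6), 5′ to 3′ on the strand of the gene. Capitals mark GC boxes (GGGCGG) and CCAAT boxes (CCAAT) on either strand. RefSeq gives Suv39h1 a window at chrX:8074761-8075010 and another at chrX:8074362-8074611, and Suv39h2 one at chr2:3474987-3475236, all on the minus strand.
Suv39h1, upstream start: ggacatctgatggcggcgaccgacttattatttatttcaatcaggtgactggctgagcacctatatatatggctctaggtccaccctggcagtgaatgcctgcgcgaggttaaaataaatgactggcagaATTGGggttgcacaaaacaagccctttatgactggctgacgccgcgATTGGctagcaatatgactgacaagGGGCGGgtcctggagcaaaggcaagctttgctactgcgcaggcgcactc
Suv39h1, downstream start: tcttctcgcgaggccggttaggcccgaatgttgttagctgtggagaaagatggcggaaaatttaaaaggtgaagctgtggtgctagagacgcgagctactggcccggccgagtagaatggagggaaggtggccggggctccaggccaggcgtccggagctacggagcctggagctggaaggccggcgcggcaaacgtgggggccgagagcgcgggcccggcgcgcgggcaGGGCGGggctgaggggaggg
Suv39h2: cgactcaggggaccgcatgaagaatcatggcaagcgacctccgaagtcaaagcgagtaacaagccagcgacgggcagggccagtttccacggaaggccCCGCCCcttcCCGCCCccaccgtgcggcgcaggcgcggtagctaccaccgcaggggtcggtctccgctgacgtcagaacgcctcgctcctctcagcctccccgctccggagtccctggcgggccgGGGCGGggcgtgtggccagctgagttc

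The upstream Suv39h1 window holds 2 CCAAT boxes, 1 GC box and 11 CpG dinucleotides, at 51.6% G and C. The downstream one holds 1 GC box and 25 CpG, and the Suv39h2 window holds 3 GC boxes and 27 CpG. Promoter windows of the family held more CpG than RefSeq windows at large. For 39 of the 50 genes RefSeq gave 51 windows, with a median of 19 CpG against 6 over all 32851 windows. A GC box was found in 68.6% of those 51 windows and 32.7% of all windows, a CCAAT box in 43.1% and 33.8%, the ETS motif CCGGAAG in 15.7% and 6.91%, the TATA box TATAAA in 1.96% and 12.4%, and AAATCA, a core of the site bound by the LSD1 recruiter GFI1, in 1.96% and 12.4%, each on both strands. All windows together belong to 27025 genes, against 15861 in the deposited counts, so they include genes not read in these cells. A comparison with expressed genes alone was not made, and whether CpG content accounts for the motif shares was not tested. A match of letters is a description of these windows only.

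The remaining H3K9 methyltransferases did not separate the groups. Ehmt2 and Ehmt1 encode G9a and GLP, which act as a pair in mono- and dimethylation of H3K9. Ehmt2 had 234, 272 and 265 CPM in KO and 373, 253 and 399 CPM in WT, so WT 1 and WT 3 were above all KO libraries and WT 2 was not. The log2 fold change was -0.41 (adjusted p = 0.459 by edgeR, SE 0.22) and ran from -0.59 without WT 2 to -0.21 after removal of the length and GC trend. Ehmt1 had 67.3, 66.5 and 72.5 CPM in KO and 96.3, 55.6 and 57.6 CPM in WT (log2 fold change -0.02, adjusted p = 0.984 by edgeR, SE 0.24). The ratio of Ehmt2 to Ehmt1 per kilobase was 5.05 to 5.94 in KO and 5.63 to 10.1 in WT, which overlap (difference of log2 means -0.41, exact permutation p = 0.2). That difference was -0.17 without WT 3, -0.59 without WT 1, and -0.05 with the trend removed. Setdb1, the H3K9 methyltransferase that is recruited through TRIM28, averaged 85.3 ± 13.6 CPM in KO and 79.6 ± 7.07 CPM in WT (SD, n = 3 each).

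**Figure D3:**
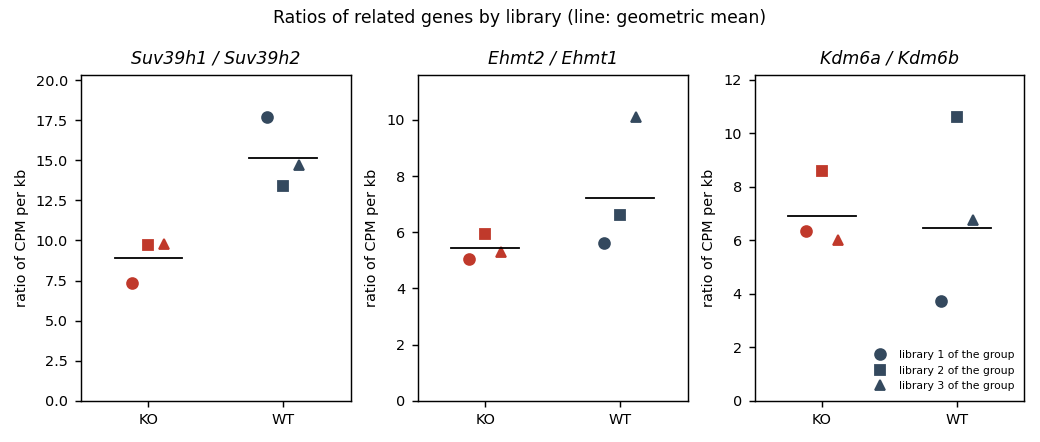
Ratio of CPM per kb (vertical axis, from 0) of related genes in each library, with KO left of WT; the line is the geometric mean of the group. The Suv39h1 to Suv39h2 ratio is 7.33 to 9.77 in KO and 13.4 to 17.7 in WT, whereas the other ratios overlap between the groups.

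The 4 H3K36 methyltransferase genes had log2 fold changes from 0.05 to 0.30, and the groups overlapped for each of them. Setd2, the enzyme of H3K36 trimethylation in gene bodies, had 248, 197 and 208 CPM in KO and 142, 219 and 168 CPM in WT (log2 fold change 0.30, adjusted p = 0.597 by edgeR, SE 0.22), and its value was -0.09 with the trend removed. Nsd2, a dimethyltransferase of the same residue, averaged 322 ± 21.0 CPM in KO and 312 ± 39.0 CPM in WT, and its relatives Nsd1 and Nsd3 averaged 175 ± 34.5 and 153 ± 9.84 CPM in KO and 142 ± 22.5 and 133 ± 12.3 CPM in WT (SD, n = 3 each). Nsd2 showed the smallest difference of the 4, with an interval of its log2 fold change of -0.37 to 0.46. With the trend removed Nsd2 was at -0.49, Nsd1 at -0.11 and Nsd3 at -0.19, so all 4 genes lay below 0 on that scale.

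Among enzymes of H4K20 and H3K79, Kmt5b had no overlap between the groups. Kmt5b and Kmt5c encode the paralogues that take H4K20 from the monomethyl to the di- and trimethyl state. Kmt5b (chromosome 19, 3767421 to 3818303, plus strand) had 52.2, 39.4 and 39.9 CPM in KO and 35.9, 30.3 and 24.9 CPM in WT, every KO library above every WT library. The log2 fold change was 0.53 (adjusted p = 0.378 by edgeR, SE 0.23), and 0.18 after removal of the length and GC trend. Kmt5c averaged 41.9 ± 7.07 CPM in KO and 52.0 ± 13.6 CPM in WT (SD, n = 3 each; log2 fold change -0.31), with overlapping groups. Kmt5a, which adds the first methyl group, averaged 90.8 ± 17.8 CPM in KO and 91.4 ± 12.4 CPM in WT, and Dot1l, the H3K79 methyltransferase, 90.4 ± 19.5 CPM in KO and 95.3 ± 27.5 CPM in WT (SD, n = 3 each).

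Kmt2e had the lowest p of the 48 genes. It encodes MLL5, a SET domain protein that binds trimethylated H3K4 through its PHD finger and for which no clear histone methyltransferase activity is established. Kmt2e (chromosome 5, 23434441 to 23504235, plus strand) stood at 145, 85.0 and 112 CPM in KO and at 75.0, 72.8 and 62.6 CPM in WT. Every KO library was above every WT library, but KO 2 lay nearer to WT 1 than to KO 3. The log2 fold change was 0.70 (adjusted p = 0.284 by edgeR, 95% interval 0.19 to 1.20, SE 0.23). It ran from 0.48 without KO 1 to 0.88 without KO 2 and was 0.32 after removal of the length and GC trend. Exons of Srpk2, on the other strand, cover 13.3% of its exon length. Of the other SET domain proteins, which have other substrates or none known for certain, Setd5 (log2 fold change 0.29) and Setd7 (0.23) lay above 0 and Setd3, Setd4 and Setd6 between -0.07 and -0.02, each with overlapping groups. Setd3, a histidine methyltransferase of actin and the highest of these per kilobase, averaged 89.4 ± 8.13 CPM in KO and 93.6 ± 5.63 CPM in WT (SD, n = 3 each; edgeR adjusted p = 0.927).

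The arginine methyltransferases were mixed. Prmt7, which monomethylates arginine (chromosome 8, 106210936 to 106252794, plus strand), had 57.1, 60.6 and 49.0 CPM in KO and 75.8, 66.6 and 91.2 CPM in WT. Every KO library was below every WT library, and the log2 fold change was -0.48 (adjusted p = 0.368 by edgeR, SE 0.21). It was -0.46 after removal of the length and GC trend. Prmt1, the main source of asymmetric dimethylarginine (chromosome 7, 44975989 to 44986568, minus strand), had 213, 213 and 164 CPM in KO and 250, 224 and 280 CPM in WT, again without overlap (log2 fold change -0.35, adjusted p = 0.493 by edgeR, SE 0.20), and its value was -0.16 with the trend removed. Prmt5, the main enzyme of symmetric dimethylarginine, had 124, 136 and 118 CPM in KO and 167, 129 and 208 CPM in WT (log2 fold change -0.41), where WT 2 lay within the KO range. Prmt9, which acts on a splicing factor (chromosome 8, 77549397 to 77581338, plus strand), had 33.3, 32.2 and 28.1 CPM in KO and 24.7, 26.2 and 20.9 CPM in WT, every KO library above every WT library (log2 fold change 0.38, adjusted p = 0.493 by edgeR, SE 0.22). With the trend removed Prmt9 was at 0.17. Prmt2, Prmt3 and Prmt6 had log2 fold changes of -0.11, 0.01 and 0.27 with overlapping groups. Over the 7 genes the median was -0.11, with 3 above 0. Exons of C130013H08Rik, on the other strand, cover 23.5% of the exon length of Prmt6.

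The window before the RefSeq start of Prmt7 is shown as that of the arginine methyltransferase with the lowest p, at chr8:106210804-106211053 on the plus strand (GRCm38.p6), with its GC box in capitals. It holds 35 CpG and no CCAAT box.
Prmt7: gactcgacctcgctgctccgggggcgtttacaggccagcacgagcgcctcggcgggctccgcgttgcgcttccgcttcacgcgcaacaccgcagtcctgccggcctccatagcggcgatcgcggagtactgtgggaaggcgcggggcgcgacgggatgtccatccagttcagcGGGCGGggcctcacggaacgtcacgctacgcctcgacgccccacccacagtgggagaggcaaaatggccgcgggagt

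Among the H3K4 demethylases, which act on the mark that LSD1 also removes and can take off its trimethyl state, Kdm5a had no overlap between the groups. Kdm5a (chromosome 6, 120364124 to 120444574, plus strand) had 131, 113 and 119 CPM in KO and 63.7, 108 and 74.1 CPM in WT. Every KO library was above every WT library, with KO 2 close to WT 2. The log2 fold change was 0.56 (adjusted p = 0.349 by edgeR, SE 0.23), 0.81 without WT 2 and 0.15 after removal of the length and GC trend. Kdm5c, the X-linked paralogue, had 182, 148 and 195 CPM in KO and 241, 150 and 184 CPM in WT (log2 fold change -0.13, adjusted p = 0.870 by edgeR, SE 0.23). Per kilobase Kdm5c stood at 26.2 CPM in KO and 28.7 CPM in WT, and Kdm5a at 11 CPM in KO and 7.47 CPM in WT. Kdm5b was read at 2.47 to 4.47 CPM in KO and 1.56 to 3.42 CPM in WT.

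The H3K27 demethylases Kdm6a, which encodes UTX, and Kdm6b, which encodes JMJD3, overlapped between the groups. Kdm6a, another X-linked gene, had 111, 95.4 and 112 CPM in KO and 67.9, 118 and 69.4 CPM in WT, so WT 2 was the highest library of all. Its log2 fold change was 0.31 (adjusted p = 0.635 by edgeR, SE 0.24), 0.63 without WT 2 and -0.02 after removal of the length and GC trend. Kdm6b had 19.6, 12.5 and 20.8 CPM in KO and 20.5, 12.5 and 11.5 CPM in WT (log2 fold change 0.25, adjusted p = 0.797 by edgeR, SE 0.32). The ratio of Kdm6a to Kdm6b per kilobase was 6.02 to 8.57 in KO and 3.72 to 10.6 in WT, a difference of log2 means of 0.10 (exact permutation p = 1).

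The demethylases of H3K9 and H3K36 spanned the widest range of any group of enzymes, -0.56 to 0.68. Kdm4b, which removes methyl groups from both residues (chromosome 17, 56326062 to 56402870, plus strand), had 31.8, 27 and 28.7 CPM in KO and 41.4, 33.6 and 54.5 CPM in WT. Every KO library was below every WT library, and the log2 fold change was -0.56 (adjusted p = 0.352 by edgeR, 95% interval -1.07 to -0.05, SE 0.23). It was -0.43 after removal of the length and GC trend and ran from -0.72 without WT 2 to -0.37 without WT 3. Its paralogues did not share this lean, with log2 fold changes of -0.03 for Kdm4a and 0.36 for Kdm4c, a difference between genes that was not tested. Kdm4a averaged 124 ± 7.01 CPM in KO and 127 ± 27 CPM in WT (SD, n = 3 each). Kdm4c had 66.8, 83.6 and 71.5 CPM in KO and 43.5, 80.4 and 48.6 CPM in WT.

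Kdm7a, a PHD finger demethylase of dimethylated H3K9 and H3K27 (chromosome 6, 39136623 to 39206789, minus strand), had 34.8, 28.5 and 38.6 CPM in KO and 14.4, 30.5 and 18.4 CPM in WT. WT 2 was above KO 2, so the groups overlapped, and the log2 fold change was 0.68 (adjusted p = 0.365 by edgeR, 95% interval 0.05 to 1.31, SE 0.29). Without WT 2 it was 1.05, without WT 1 0.46, and after removal of the length and GC trend 0.30. The related genes Phf8 and Phf2 had log2 fold changes of 0.10 and -0.46. Phf2 had 80.4, 43.0 and 56.0 CPM in KO and 116, 64.4 and 67.2 CPM in WT, and its log2 fold change was -0.74 without KO 1 and -0.16 without WT 1. The H3K9 demethylase genes Kdm3a and Kdm3b, the H3K36 demethylase genes Kdm2a and Kdm2b, and Kdm8 had log2 fold changes from -0.19 to 0.17, each with overlapping groups.

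**Figure D4:**
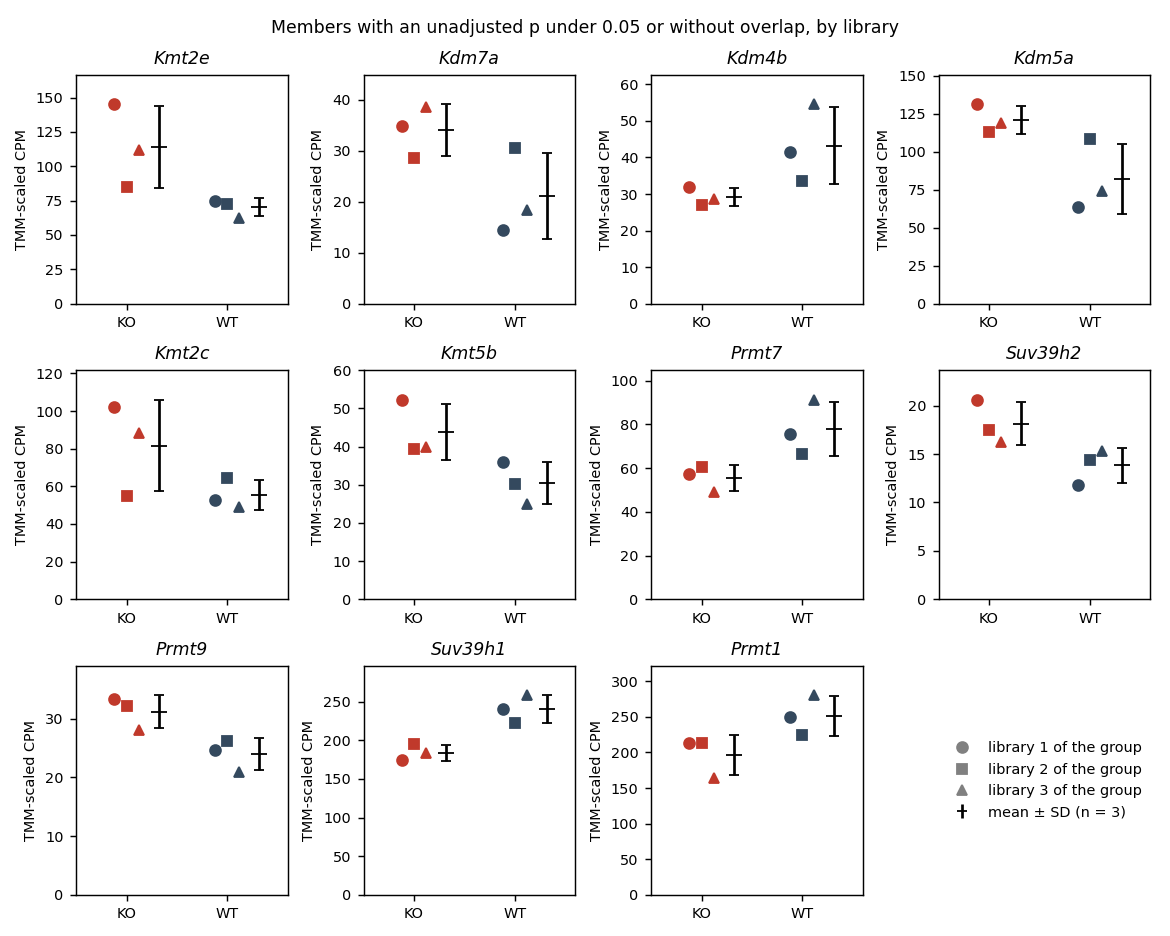
TMM-scaled CPM (vertical axes, from 0) of the 11 genes with an unadjusted p under 0.05 or no overlap between the groups, 1 point per library, KO left of WT, with the mean and SD beside the points. The highest KO library stands apart from KO 2 for Kmt2e (145 and 85.0 CPM) and Kmt2c (102 and 54.9 CPM), and WT 2 stands apart from the other WT libraries for Kdm7a and Kdm5a.

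The difference between KO and WT moved with the length and base composition of the transcripts. Across the 48 genes, the Spearman correlation of the log2 fold change with exon length was 0.54 and that with the GC content of the longest transcript was -0.65. Across all 10747 tested genes with a length in GENCODE vM21 they were 0.39 and -0.37, genes not being independent replicates. The 16 longest of the 48 (7.41 to 19.8 kb) lay at a median of 0.30 on that scale, with 15 above 0, and the 16 shortest (1.71 to 4.34 kb) one of -0.05, with 5 above 0. Once a smooth trend on length and GC content had been taken out of each library, median values stood at -0.09 for the longest and -0.03 for the shortest, and the correlations across the 48 genes were 0.05 and -0.12. The removal itself pushes these correlations towards 0, and it would also take out any genotype difference that follows length or GC content. In that fit 0 of the 48 had an adjusted p under 0.05, 0 were higher at an unadjusted p under 0.05, and 3 were lower, namely Suv39h1 (log2 fold change -0.54, adjusted p = 0.222 by edgeR), Prmt7 and Kdm4b. Over all genes in that fit, 32 passed the adjusted threshold and 12.9% had an unadjusted p under 0.05. The median of the 48 was then -0.06 and that of all genes -0.04. Of the 7 genes with an unadjusted p under 0.05 on the TMM scale, the 5 higher ones measured 7.32 to 15.0 kb and the 2 lower ones 3.90 and 4.58 kb. Whether length and composition, depth or genotype sets these values cannot be told apart here.

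**Figure D5:**
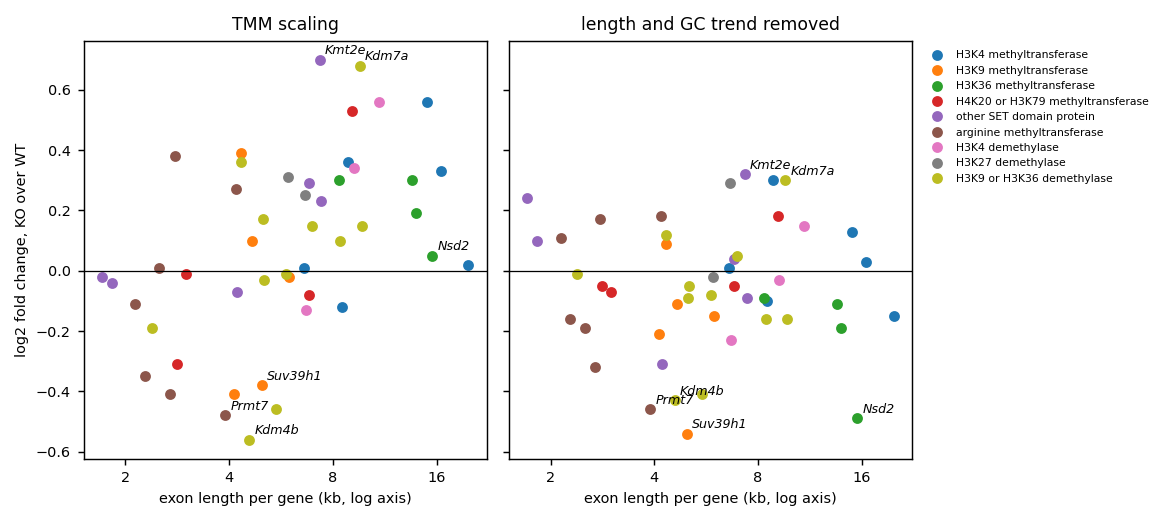
Log2 fold change of KO over WT (vertical axis) against exon length (horizontal log axis, kb) for the 48 tested genes, with TMM scaling on the left and with the length and GC trend of each library removed on the right. On the left the longest genes lie mostly above 0 (15 of 16), and on the right 6 of 16 do; Prmt7, Kdm4b and Suv39h1 lie low in both.

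Within the genotypes the genes followed single libraries. KO 1 was the highest of the 3 KO libraries for 30 of the 48 genes, or 62.5%, against 36.9% of all tested genes, and KO 2 was the lowest for 33, or 68.8%, against 36.6%. These orders are on the TMM scale, with the length and GC trend left in. The 48 genes have a median exon length of 5.95 kb, against 3.27 kb over all tested genes with a length. Whether that trend adds to these shares was not tested. KO 1 is the library with the most Kdm1a among the KO libraries and the highest sum of memory and follicular B cell markers, and KO 2 had the lowest such sum of the 3. A link of Kdm1a or of these markers with the order of the libraries was not tested. Without KO 1 the median log2 fold change of the 48 genes was -0.02, and 0 were higher and 2 lower at an unadjusted p under 0.05 (Kdm4b and Phf2), when 7.74% of all tested genes were past that threshold. WT 2 was the highest WT library for 10 of the 48, or 20.8%, against 38.6% of all tested genes. These 10 include Kdm3a, Kdm4c, Kdm5a, Kdm6a, Kdm7a and Setd2, picked out here after their values were seen. Without WT 2, 8 genes were higher and 6 lower at an unadjusted p under 0.05, when 22.1% of all tested genes were past that threshold, and the lowest adjusted p of the 48 was 0.128. Without WT 3, 1 was higher and 0 were lower, against 5.08% of all tested genes in either direction.

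The partners of these enzymes gave the same count. Of 12 subunits of the COMPASS and MLL complexes, all tested, 0 passed, and the median log2 fold change was -0.03 with 6 above 0. Pagr1a, a subunit of the KMT2C and KMT2D complexes, had 72.8, 92.2 and 57.3 CPM in KO and 124, 84.9 and 123 CPM in WT (log2 fold change -0.58, adjusted p = 0.352 by edgeR, SE 0.24). Ash2l, a core subunit of all these complexes, had 81.6, 82.5 and 71.1 CPM in KO and 67.9, 53.7 and 52.0 CPM in WT without overlap (log2 fold change 0.44, adjusted p = 0.402 by edgeR, SE 0.20). Men1, the menin gene, had a log2 fold change of -0.46. With the length and GC trend removed, Pagr1a was at -0.21, Ash2l at 0.17 and Men1 at -0.26. Of 10 partners and readers of H3K9 methylation, all tested, 0 passed, and the median was 0.10 with 7 above 0. Trim28, the corepressor that brings SETDB1 to its targets, had 403, 362 and 384 CPM in KO and 596, 415 and 617 CPM in WT, every KO library below every WT library (log2 fold change -0.50, adjusted p = 0.355 by edgeR, SE 0.21). Atf7ip, which stabilises SETDB1, had a log2 fold change of 0.40 with every KO library above every WT library, and Fam208a, which encodes the HUSH complex subunit TASOR, one of 0.69 with overlap. With the trend removed, Trim28 was at -0.28, Atf7ip at 0.09 and Fam208a at 0.38, and without WT 2 Fam208a was at 1.16.

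Among relatives that the symbol rule leaves out, 16 of 24 listed symbols were in the table, 13 were tested and 0 passed. The median was 0.17, with 7 above 0. Jarid2, a Jumonji family gene without known demethylase activity that acts with Polycomb complexes, had 41.9, 39.4 and 55.7 CPM in KO and 28.1, 22.3 and 23.3 CPM in WT. Its groups were well apart, and the log2 fold change was 0.90 (adjusted p = 0.201 by edgeR, SE 0.23). Ash1l, an H3K36 methyltransferase gene, had 109, 43.8 and 62.8 CPM in KO and 33.0, 58.8 and 32.1 CPM in WT (log2 fold change 0.79, adjusted p = 0.418 by edgeR, SE 0.37). With the trend removed Jarid2 was at 0.64 and Ash1l at 0.36, and Ash1l ran from 0.36 without KO 1 to 1.14 without WT 2. For Kdm1a itself the log2 fold change was -1.19 (adjusted p = 0.393 by edgeR, SE 0.50), and without KO 1 it was -1.93 (adjusted p = 0.0169 by edgeR). Kdm1b, which encodes the second LSD1-type demethylase, had 33.2, 19.7 and 22.2 CPM in KO and 21.5, 23.6 and 16.5 CPM in WT, and its log2 fold change of 0.28 had an interval of -0.32 to 0.88.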

How the data were processed

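The authors deposited raw counts of reads by gene symbol, with a column for each mouse. CASAVA, STAR 2.5.2, featureCounts 1.5.2 and mm10 are named in the submitters' processing notes; the labels do not state the annotation, the strand setting or how multi-mapping reads were treated. Groups and replicate numbers came from the sample titles. Testing of the deposited counts used edgeR 4.0.16 under R 4.3.3, with filterByExpr, TMM, robust glmQLFit and glmQLFTest (two-sided, no covariates, Benjamini-Hochberg over all tested genes, threshold 0.05). An SE is the fold change divided by the root of its F value; the common biological coefficient of variation was 30.8%. DESeq2 1.42.0 and limma 3.58.1 were alternatives, and the fits were tested on simulated data. Coordinates, exon lengths (union of exons), GC content and exon overlaps came from GENCODE vM21 (mm10), in which 98.4% of tested genes matched by symbol. Floors and intervals on counts cover counting error only, and p-values measure the spread between these mice. The genes and lists were chosen with earlier results of these data known. Fold changes and values per library are given for genes with an adjusted or unadjusted p under 0.05 or no overlap, for the members of preset gene pairs, for the highest gene per kilobase in each group of enzymes and for up to 3 genes per list; others beyond these, such as Kmt2d, Setd1b, Phf2, Kdm4c, Prmt5 and Kdm1b, were named after their values were seen. No 2 libraries of a group looked like repeats of a single one (chi-square per degree of freedom 14.4 to 50.9).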

Additional observations from a re-analysis of the deposited data

How the results depend on the processing

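Over 16 alternatives, 0 of the methylation enzyme genes passed in any fit. The count of all genes past the threshold was 9 and became 18 with library size alone, 93 with no filter, 122 with DESeq2, 2 with limma-voom, 21 with the replicate number as a block and 32 with the length and GC trend removed, and ran from 1 to 24 with 1 library left out. The median log2 fold change of the 48 tested genes was 0.07, and -0.06 with the trend removed; it ran from -0.02 to 0.17 with 1 library left out. Library size alone moved the median of all genes to 0.13 and that of the 48 to 0.19. Values near 0 changed sign. Kmt5a (-0.01) was 0.01 with upper-quartile scaling, 0.11 with library size alone, 0 with at least 5 CPM in 3 libraries, 0.05 after thinning to the smallest library, and -0.19 to 0.09 with 1 library left out. Ehmt1 (-0.02) was 0.09 with library size alone, 0.03 with limma-voom, 0.02 with the replicate block and -0.17 to 0.26 with 1 library left out. Kdm4a (-0.03) was 0.08 with library size alone, 0.01 after thinning and -0.15 to 0.14 with 1 library left out. Setd3 was 0.05 with library size alone. Kdm5c ran from -0.28 to 0.05 with 1 library left out. With the trend removed Kdm6a was -0.02, Setd2 -0.09 and the Kdm6a to Kdm6b log2 ratio difference -0.31; that difference ran from -0.30 to 0.46 with 1 library left out. The cause of these changes was not tested. Deviations of same-numbered libraries correlated at 0.34, -0.05 and 0.44. KO 1 correlated best with WT 1 and KO 3 with WT 3, but KO 2 also correlated best with WT 1 (0.20). These correlations do not settle whether the replicate numbers pair the mice. The ratios and their leave-out and trend values were added after the data were seen.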
